A study of Homo sapiens with 18 samples.

Results

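The genes described here were the 4 FGF receptor genes FGFR1, FGFR2, FGFR3 and FGFR4 and 6 genes that ERK signalling induces and that mostly feed back on it, namely SPRY1, SPRY2, SPRY4, DUSP6, ETV4 and ETV5. They were taken by name from the gene count table, which held all 10 of them among 57133 genes, and all 10 were abundant enough to be tested among 17672 genes. RNA-seq was performed on PGP1, an established human induced pluripotent stem cell (PSC) line, cultured on Matrigel in mTeSR1, a defined medium that contains FGF2. The comparison asks what loss of PCGF6, a subunit of the variant Polycomb complex PRC1.6, does to the transcriptome of cells kept in PSC culture without induced differentiation. WT cells were unedited PGP1 cells, while PCGF6-KO clone 1 and PCGF6-KO clone 2 carried different Cas9 deletions in the first exon of PCGF6 on both alleles, and each of these groups had 2 libraries. Each knockout group was thus 1 clone, and nothing in the labels says whether the 2 libraries of a group came from separate cultures. The p-values therefore measure the spread between these libraries, which may be technical. Where PCGF6-KO is compared with WT as 1 group, its 4 libraries come from 2 clones and are not 4 independent knockouts.

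FGF receptors are receptor tyrosine kinases that bind FGF ligands together with heparan sulphate or a Klotho protein and pass the signal through FRS2, GRB2 and RAS to the kinases RAF, MEK and ERK. Active ERK switches on genes that restrain the same pathway, among them the Sprouty proteins, which act near the receptor and RAS, and DUSP6, a cytoplasmic phosphatase that removes the activating phosphates from ERK. It also raises the ETS transcription factors ETV4 and ETV5, which carry the signal to further genes. Human PSCs depend on FGF2 for self-renewal, and FGF signalling later drives the formation and migration of mesoderm at the primitive streak.

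The promoters of the member with the largest increase (FGFR3), of a Sprouty gene that was higher (SPRY4) and of the member with the largest decrease (DUSP6) are shown because these genes moved in different directions. Each is a RefSeq window on GRCh38.p14 from 250 bases before to 50 bases after an annotated start, written 5′ to 3′ on the strand of the gene, with capitals for a matched motif. The FGFR3 window lies at chr4:1793043-1793342 (plus strand), the SPRY4 window at chr5:142324198-142324497 (minus strand) and the DUSP6 window at chr12:89352452-89352751 (minus strand). The windows of FGFR3 and DUSP6 span the 5′ end of the gene. That of SPRY4, its only window, lies inside the gene, whose 5′ end is at 142326455, so the sequence at that end was not searched.
FGFR3: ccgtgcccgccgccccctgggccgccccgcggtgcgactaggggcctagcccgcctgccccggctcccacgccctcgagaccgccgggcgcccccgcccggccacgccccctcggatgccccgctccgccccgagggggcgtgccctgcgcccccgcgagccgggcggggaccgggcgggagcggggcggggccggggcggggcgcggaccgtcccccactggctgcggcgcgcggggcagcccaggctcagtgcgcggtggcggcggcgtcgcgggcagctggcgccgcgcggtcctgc
SPRY4: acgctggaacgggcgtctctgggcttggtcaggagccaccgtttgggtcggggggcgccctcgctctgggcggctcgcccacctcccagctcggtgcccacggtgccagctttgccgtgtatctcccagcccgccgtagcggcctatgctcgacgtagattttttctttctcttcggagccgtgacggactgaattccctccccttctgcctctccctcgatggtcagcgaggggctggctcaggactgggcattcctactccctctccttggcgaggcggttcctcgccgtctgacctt
DUSP6: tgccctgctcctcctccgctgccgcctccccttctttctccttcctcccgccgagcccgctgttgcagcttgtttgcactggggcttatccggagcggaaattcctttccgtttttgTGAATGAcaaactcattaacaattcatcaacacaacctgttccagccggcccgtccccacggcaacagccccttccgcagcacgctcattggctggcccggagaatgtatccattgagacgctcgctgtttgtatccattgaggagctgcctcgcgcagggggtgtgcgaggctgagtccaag
The FGFR3 window was 86.3% G and C with 51 CpG dinucleotides, against a median of 58.7% and 14 over all 35097 windows. That of SPRY4 was 65.0% G and C with 26 CpG, and that of DUSP6 was 58.3% with 19. Exact matches on both strands were sought for the E-box CACGTG, bound by MAX and its partners, and for the E2F6 motif GCGGGAA. The ETS motif CCGGAAG was sought too, as was TGAATGA, used here as a shortened form of the motif of CIC, a repressor that ERK inactivates. Of all windows, 7.25% held the E-box, 6.55% the E2F6 motif, 10.3% the ETS motif and 4.01% the shortened CIC motif. The DUSP6 window held TGAATGA, which begins 133 bases before the start and is followed by C, and no match of the other motifs. Since only the shortened form was sought, this match does not show a whole CIC site. The windows of FGFR3 and SPRY4 held none of the 4 motifs. RefSeq entries were matched for 7 members with 15 windows, and only 2 further matches were found, an ETS motif in 1 window of SPRY1 and an E-box in 1 window of FGFR4. No window of FGFR1, ETV4 or ETV5 was examined, so their promoters were not searched for the motifs. These matches describe the letters of the windows and say nothing about binding.

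The libraries held between 15877396 and 18918609 counts, and the 10 genes took from 0.129 to 0.168% of them. PCGF6, the targeted gene, was counted 268 and 300 times in the WT libraries, 99 and 103 times in those of clone 1 and 187 and 159 times in those of clone 2, summed over the whole gene and not over the deleted part alone. The cells were checked against marker lists in read counts scaled to a common library size by TMM (CPM). Summed over 10 pluripotent cell markers, the level was 5422 and 5638 CPM in WT and from 4702 to 4980 CPM in PCGF6-KO, with 0 genes called higher and 3 lower. Summed over 12 markers of primitive streak and mesoderm, it was 160 and 159 CPM in WT and from 1170 to 1433 CPM in PCGF6-KO. The 10 of these genes that were tested were called higher, but most of them passed the filter on low counts only through PCGF6-KO, so that this count was partly set by the filter. In the WT libraries 4 and 5 of these 12 genes were at 0, HAND1, MSGN1 and MESP1 in both, and none was at 0 in PCGF6-KO. The 6 markers of definitive endoderm summed to 13.0 and 13.7 CPM in WT and from 118.8 to 153 CPM in PCGF6-KO. Of these, 5 were called higher and 0 lower, and 1 was at 0 in each WT library. SOX17 (0 counts in each WT library), GSC (1 in each) and FOXA2 (7 and 5) passed the filter only through PCGF6-KO. The count of calls was thus partly set by the filter here too. The 10 neuroectoderm markers summed to 585 and 619 CPM in WT and from 748 to 855 CPM in PCGF6-KO. Of the 7 tested, 3 were called higher and 2 lower. ZIC1 (3 and 6 WT counts) and LHX2 (6 and 3), both called higher, passed the filter only through PCGF6-KO. NES, which also marks other immature cells, was the largest single part of the neuroectoderm sum. It had 276.9 and 322.5 CPM in WT and from 591.8 to 709.2 CPM in PCGF6-KO. Without NES, a choice made after the data were seen, the sum was 308 and 297 CPM in WT and from 145 to 169 CPM in PCGF6-KO, where ZIC2 and OTX2 fell. Markers of early mesoderm and endoderm thus moved with the groups in every comparison with WT below. Between the clones, 7 of the 10 tested streak and mesoderm markers were called higher in clone 2 and 0 lower (median log2 difference 0.93). Of all 17672 tested genes, 659 were called higher there and 731 lower. The part of these markers in the results was not tested. In such bulk samples, more RNA per cell and more cells of a type cannot be told apart.

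Groups were compared by the quasi-likelihood test of edgeR, with p adjusted over all tested genes (Benjamini-Hochberg). A call required an adjusted p below 0.05 together with a log2 fold change beyond 0.6 in either direction. Of the 10 genes, 5 were called between PCGF6-KO and WT, while 23.6% of all tested genes were. FGFR3, SPRY2 and SPRY4 were the 3 called higher (14.9% of all genes) and DUSP6 and ETV5 the 2 called lower (8.7% of all genes). The median log2 fold change was 0.11 over the 10 genes and 0.00 over all genes. In 7 of the 10, the CPM of the 2 WT libraries and the 4 PCGF6-KO libraries did not overlap, which held for 57.1% of all genes.

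**Figure D1:**
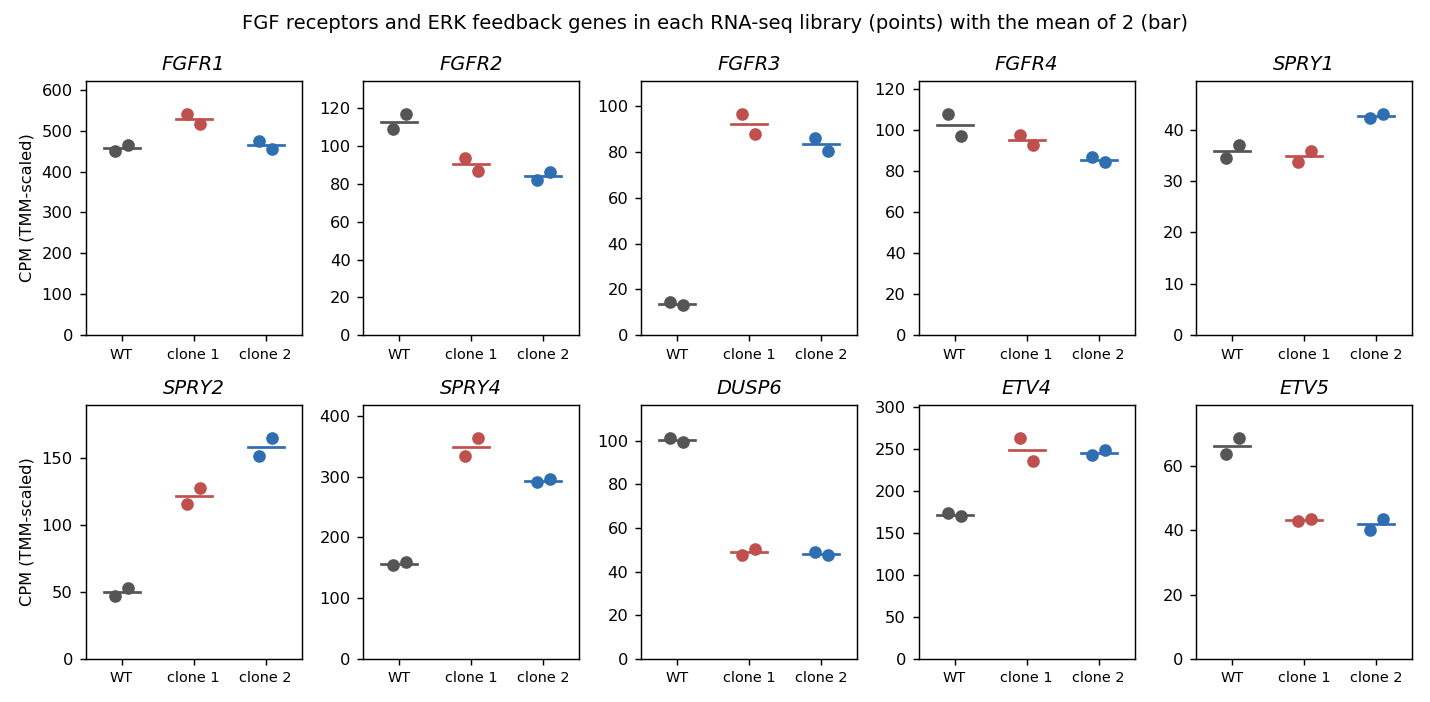
CPM (TMM-scaled, linear axes from 0) of the 10 genes in the 6 RNA-seq libraries, as points by group (WT, PCGF6-KO clone 1, PCGF6-KO clone 2), with a bar at the mean of 2 libraries. FGFR3, SPRY2 and SPRY4 lie higher and DUSP6 and ETV5 lower in all 4 PCGF6-KO libraries than in both WT libraries.

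Of the receptors, only FGFR3 was called. Its product is known for restraining growth of the skeleton, and per length it was the least abundant receptor in WT cells. FGFR3, on chromosome 4 from 1793293 to 1808872 (GRCh38, plus strand), had 14.4 and 13.2 CPM in WT, 96.6 and 87.9 CPM in clone 1, and 86.3 and 80.5 CPM in clone 2. These levels rest on 234 and 221 counts in WT and on 1292 to 1846 counts in PCGF6-KO. Every PCGF6-KO library was far above both WT libraries, and the clones lay close to each other. FGFR3 rose 6.36-fold (log2 fold change 2.67, standard error 0.10, adjusted p = 3.41e-07, edgeR). Over all alternatives its log2 fold change stayed between 2.61 and 2.73.

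FGFR1, a major receptor for FGF2 in human PSCs and the most abundant receptor per length, lies on chromosome 8 from 38400215 to 38468834 (minus strand). It had 451 and 466 CPM in WT, 540.3 and 517 CPM in clone 1, and 474 and 456 CPM in clone 2. LETM2 on the other strand, which shares 138 exon bases with it, had 26 to 60 counts. The clone 1 libraries were the highest, and those of clone 2 overlapped WT. Between PCGF6-KO and WT its log2 fold change was 0.12 (95% interval −0.06 to 0.29, adjusted p = 0.28, edgeR). FGFR2, the receptor with epithelial and mesenchymal splice forms, lies on chromosome 10 from 121478332 to 121598458 (minus strand). It had 109 and 117 CPM in WT, 93.9 and 86.9 CPM in clone 1, and 82.2 and 86.1 CPM in clone 2, so that the groups did not overlap. Its log2 fold change of −0.37 (95% interval −0.53 to −0.21, adjusted p = 0.00356, edgeR) passed the p threshold and not the fold limit, and without WT replicate 2 it was −0.32 with an adjusted p of 0.069. FGFR4, the receptor for FGF19 with the coreceptor KLB, lies on chromosome 5 from 177086905 to 177098144 (plus strand). FGFR4 had 108 and 97.0 CPM in WT, 97.4 and 92.5 CPM in clone 1, and 86.6 and 84.5 CPM in clone 2. The lower WT library overlapped clone 1, and the log2 fold change of −0.18 (95% interval −0.36 to 0.00) gave an adjusted p of 0.108 (edgeR).

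Levels of different genes were compared as RPKM, CPM divided by the gene length given beside the counts. In WT the receptors stood in the order FGFR1 (33.1 ± 0.777 RPKM, SD, n = 2), FGFR4 (21.2 ± 1.57 RPKM), FGFR2 (14.9 ± 0.755 RPKM) and FGFR3 (2.85 ± 0.164 RPKM), and no neighbours in this order overlapped. In PCGF6-KO FGFR3 had 18.1 ± 1.37 RPKM (SD, n = 4 libraries from 2 clones), above FGFR2 with 11.52 ± 0.641 RPKM. The FGFR3 libraries overlapped those of FGFR4 (18.7 ± 1.21 RPKM). The share of FGFR3 in the summed RPKM of the 4 receptors was 4.11 and 3.80% in WT and from 21.05 to 22.02% in PCGF6-KO. The shares of FGFR2 and FGFR4 were lower in the 4 PCGF6-KO libraries than in both WT libraries. The summed receptor level was 72.2 and 71.9 RPKM in WT, 91.5 and 86.1 RPKM in clone 1, and 80.8 and 78.4 RPKM in clone 2. These shares depend on the length used. With the length of the MANE Select transcript, a choice made after the data were seen, the share of FGFR3 was 2.37 and 2.18% in WT and from 12.8 to 13.5% in PCGF6-KO, since the length of FGFR1 was then 5697 instead of 13842 bases. With these lengths FGFR3 lay above FGFR2 and below FGFR4 in each clone, with no overlap.

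**Figure D2:**
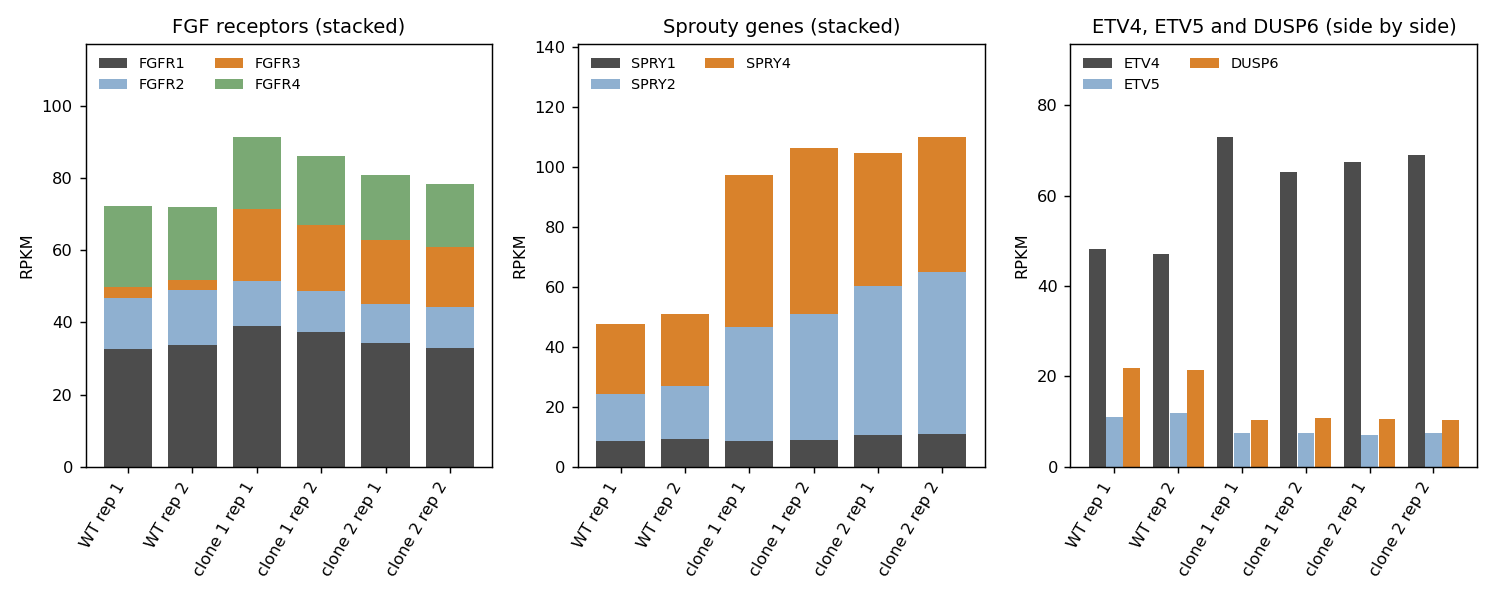
RPKM (linear axes from 0) of the FGF receptors and of the Sprouty genes as stacked bars, and of ETV4, ETV5 and DUSP6 side by side, in each of the 6 libraries. The FGFR3 segment grows from 4.11 and 3.80% of the receptor bar in WT to between 21.05 and 22.02% in PCGF6-KO, and the Sprouty bar from 47.6 and 51.1 RPKM in WT to between 97.5 and 110.1 RPKM.

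Of the Sprouty genes, SPRY2 and SPRY4 rose and SPRY1 did not pass the test. SPRY2, on chromosome 13 from 80335976 to 80341126 (minus strand), had 46.9 and 53.1 CPM in WT, 116 and 127 CPM in clone 1, and 151 and 165 CPM in clone 2. The 3 groups were separate, with WT lowest and clone 2 highest. SPRY2 rose 2.79-fold (log2 fold change 1.48, standard error 0.15, adjusted p = 7.52e-05, edgeR). SPRY4, on chromosome 5 from 142310427 to 142326455 (minus strand), had 154 and 159 CPM in WT, 334 and 364 CPM in clone 1, and 290.5 and 296 CPM in clone 2. Here the groups were separate too, with clone 1 highest. SPRY4 rose 2.05-fold (log2 fold change 1.04, standard error 0.10, adjusted p = 6.1e-05, same test). Its antisense gene SPRY4-AS1, which shares no exon base with it, had between 5 and 15 counts per library.

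SPRY1, on chromosome 4 from 123396795 to 123403760 (plus strand), had 34.5 and 37.1 CPM in WT, 33.6 and 35.9 CPM in clone 1, and 42.3 and 43.0 CPM in clone 2. The libraries of clone 1 overlapped WT and those of clone 2 lay above both. The log2 fold change of PCGF6-KO was 0.11 (95% interval −0.15 to 0.37, adjusted p = 0.482, edgeR). Summed over the 3 Sprouty genes, the level was 47.6 and 51.1 RPKM in WT, 97.5 and 106 RPKM in clone 1, and 105 and 110.1 RPKM in clone 2. SPRY1 made up 18.3% of this sum in both WT libraries and between 8.53 and 10.2% in PCGF6-KO. SPRY4 was the larger part in clone 1, with 52.2 and 52.1% against 39.1 and 39.4% for SPRY2. In clone 2 the order was the other way round, with 42.3 and 40.9% for SPRY4 against 47.5 and 49.2% for SPRY2.

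DUSP6, the ERK phosphatase, moved against SPRY2 and SPRY4. DUSP6, on chromosome 12 from 89347235 to 89352501 (minus strand), had 101 and 99.3 CPM in WT, 47.5 and 50.3 CPM in clone 1, and 48.8 and 47.6 CPM in clone 2. The 4 PCGF6-KO libraries overlapped between the clones and lay far below WT. DUSP6 fell to 0.484 of its WT level (log2 fold change −1.05, standard error 0.06, adjusted p = 3.7e-06, edgeR). A lncRNA gene annotated on the other strand, with no row in the table, shares 1105 exon bases with DUSP6, and its reads cannot be told apart from those of DUSP6 without the strand. The ratio of SPRY4 to DUSP6 in RPKM was 1.07 and 1.13 in the WT libraries, 4.96 and 5.10 in those of clone 1, and 4.205 and 4.39 in those of clone 2. Transcripts of both genes were thus near the same level per length in WT and several times apart in every PCGF6-KO library.

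The ETS factors ETV4 and ETV5, close relatives of each other, had opposite signs. ETV4, on chromosome 17 from 43527844 to 43579620 (minus strand), had 174 and 169.8 CPM in WT, 264 and 236 CPM in clone 1, and 244 and 249 CPM in clone 2. All PCGF6-KO libraries were above WT and the clones overlapped. ETV4 shares 68 exon bases with DHX8, which lies on the other strand and had 1533 to 1951 counts, and with the strand setting not given, reads of the shared bases cannot be told apart. Its log2 fold change of 0.53 (standard error 0.06, 95% interval 0.38 to 0.68, adjusted p = 0.000263, edgeR) stayed under the fold limit, so that it was not called. ETV5, on chromosome 3 from 186046314 to 186110318 (minus strand), had 63.8 and 68.7 CPM in WT, 42.9 and 43.5 CPM in clone 1, and 40.2 and 43.5 CPM in clone 2. The clones overlapped, and both lay below WT. ETV5 fell to 0.642 of its WT level (log2 fold change −0.64, standard error 0.07, adjusted p = 0.00016, same test). This is close to the fold limit, and without WT replicate 2 the log2 fold change was −0.58 (adjusted p = 0.00585, edgeR) and the call was lost. DGKG, which shares 164 exon bases with ETV5 on the same strand, had 3 to 10 counts. The ratio of ETV4 to ETV5 in RPKM was 4.38 and 3.97 in the WT libraries, 9.88 and 8.73 in those of clone 1, and 9.74 and 9.20 in those of clone 2, higher in each of 4 PCGF6-KO libraries than in WT. ETV1, the third gene of this subfamily and chosen for mention after its values were seen, fell as well. Its log2 fold change of −0.603 (95% interval −0.85 to −0.35, adjusted p = 0.0026, edgeR) was barely past the fold limit. ETV1 was called lower in clone 2 and not in clone 1.

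Across all 10 genes, ETV4 (47.6 ± 0.754 RPKM, SD, n = 2) had the highest level per length in WT, followed by FGFR1, SPRY4 (23.8 ± 0.56 RPKM), DUSP6 (21.7 ± 0.311 RPKM), FGFR4, SPRY2 (16.5 ± 1.45 RPKM), FGFR2, ETV5 (11.4 ± 0.608 RPKM), SPRY1 (9.04 ± 0.46 RPKM) and FGFR3. The libraries of DUSP6 and FGFR4 overlapped, as did those of SPRY2 and FGFR2, and the other neighbours did not. The order differed between the clones. In clone 1 it was ETV4 (69.2 ± 5.47 RPKM, SD, n = 2), SPRY4 (53.1 ± 3.19 RPKM), SPRY2 (40.0 ± 2.65 RPKM), FGFR1, FGFR4, FGFR3, FGFR2, DUSP6 (10.6 ± 0.434 RPKM), SPRY1 (8.78 ± 0.409 RPKM) and ETV5 (7.45 ± 0.0631 RPKM). There the libraries of SPRY2 and FGFR1 overlapped, as did those of FGFR4 and FGFR3. In clone 2 SPRY2 (52.0 ± 3.14 RPKM) stood above SPRY4 (44.7 ± 0.56 RPKM) and SPRY1 (10.8 ± 0.126 RPKM) above DUSP6 (10.4 ± 0.183 RPKM), with the rest of the order as in clone 1. FGFR4 and FGFR3 overlapped in clone 2 too, and the libraries of FGFR2 and SPRY1 met at 10.85 RPKM. Both clones had DUSP6 below FGFR2 and FGFR3, while in WT it stood above them. The place of FGFR1 depends on the length. With MANE Select lengths it stood above SPRY2 and SPRY4 in both clones, with 92.8 RPKM in clone 1 and 81.5 RPKM in clone 2. In WT these lengths put FGFR1 (80.5 RPKM) above ETV4 (73.5 RPKM), FGFR4 above SPRY4, with which it overlapped, and FGFR2 above SPRY2.

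Clone 1 and clone 2 were set against WT separately in a model of 3 groups. Both comparisons use the same WT libraries, so error in those libraries enters both. In clone 1 5 of the 10 genes were called (24.8% of all genes) and in clone 2 5 (29.4% of all genes). These were the same 5 genes in the same direction in both, which held for 20.6% of all genes. The log2 fold changes in clone 1 and clone 2 were 2.74 and 2.60 for FGFR3, 1.28 and 1.66 for SPRY2, 1.16 and 0.91 for SPRY4, −1.04 and −1.06 for DUSP6, and −0.62 and −0.66 for ETV5. The call of ETV5 was lost in clone 1 without WT replicate 2 (−0.55) and in clone 2 without clone 2 replicate 1 (−0.598). ETV4 had log2 fold changes of 0.54 and 0.52 and was called in clone 1 only without clone 1 replicate 2 (0.63). FGFR2 had −0.32 and −0.42. FGFR1 differed from WT in clone 1 by 0.21 (adjusted p = 0.00267 in edgeR) and in clone 2 by 0.02 (adjusted p = 0.791). FGFR4 differed by −0.11 (adjusted p = 0.217, same test) and −0.26 (adjusted p = 0.00325), and SPRY1 by −0.04 (adjusted p = 0.725, same test) and 0.25 (adjusted p = 0.0186). Without WT replicate 1, the adjusted p in edgeR was 0.0615 for FGFR1 in clone 1, 0.126 for FGFR4 in clone 2 and 0.188 for SPRY1 in clone 2, and the FGFR1 difference in clone 2 turned to −0.0065. Without clone 2 replicate 1 this difference was −0.00027, and without clone 2 replicate 2 the adjusted p of SPRY1 in clone 2 was 0.0674 (edgeR). The SPRY1 difference in clone 1 turned to 0.018 without WT replicate 2 and to 0.0094 without clone 1 replicate 1.

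**Figure D3:**
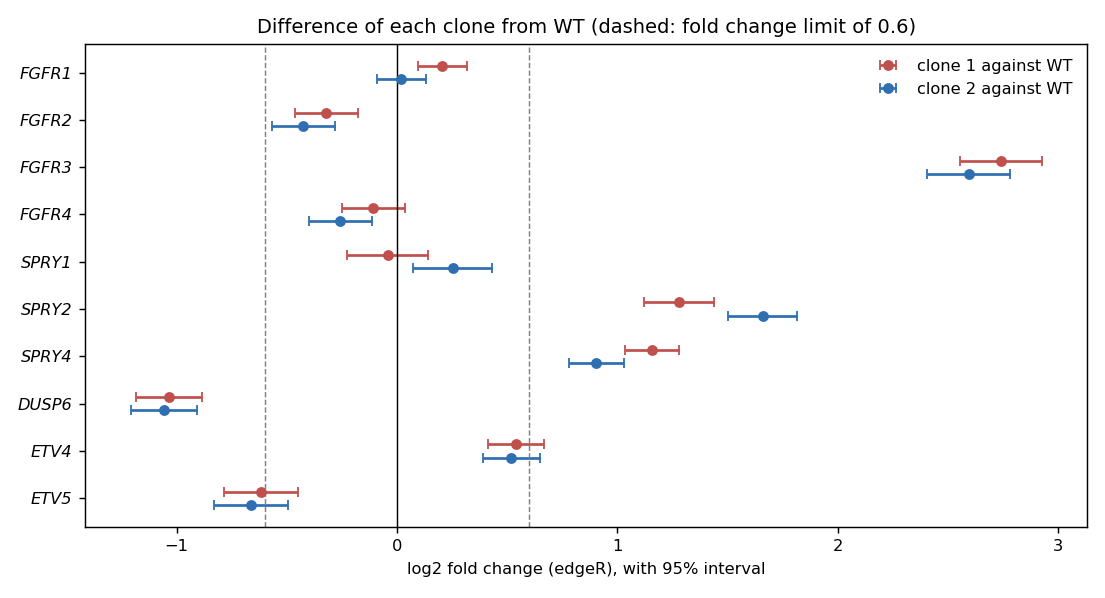
Log2 fold change (edgeR, x axis) of each of the 10 genes in clone 1 and in clone 2 against the same 2 WT libraries, with 95% intervals as bars and dashed lines at the fold change limit of 0.6. FGFR3, SPRY2, SPRY4, DUSP6 and ETV5 lie past the limit in both clones, with 2.74 and 2.60 for FGFR3 at the far right.

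Compared directly, clone 2 and clone 1 differed in 0 of the 10 genes by the call rule (7.87% of all genes were called). By the adjusted p alone, 4 of the 10 differed, against 3442 of all 17672 tested genes. By unadjusted p in edgeR, 5 were under 0.05, and DESeq2 called 0. For these counts the share over all genes was not taken, so they cannot be set against it. SPRY2 was 1.3-fold higher in clone 2 (log2 difference 0.38, standard error 0.07, adjusted p = 0.000293, edgeR) and SPRY4 was lower (−0.25, standard error 0.06, adjusted p = 0.00257, same test). Both kept an adjusted p under 0.05 in 15 of 15 alternatives. The 2 feedback genes that rose thus did so to different degrees, SPRY2 more in clone 2 and SPRY4 more in clone 1. The clones also differed in streak and mesoderm markers, as given above, and the part of this in the differences was not tested. SPRY1 was higher in clone 2 (0.29, adjusted p = 0.0168, edgeR) and FGFR1 lower (−0.19, adjusted p = 0.0144, edgeR). The difference of SPRY1 passed in 11 of 15 alternatives, and that of FGFR1 in 13. Without clone 2 replicate 2 the adjusted p by the same test was 0.0795 for SPRY1 and 0.138 for FGFR1. Without clone 1 replicate 1 it was 0.0932 for SPRY1 and 0.079 for FGFR1, and without clone 2 replicate 1 it was 0.0588 for SPRY1 (edgeR). The adjusted p of SPRY1 by DESeq2 was 0.0667. For FGFR3 the difference was −0.14 (95% interval −0.30 to 0.01, adjusted p = 0.19, edgeR) and for DUSP6 −0.02 (95% interval −0.18 to 0.13, adjusted p = 0.885, edgeR), which turned to 0.015 without clone 1 replicate 2.

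The rest of the pathway was read from lists of FGF genes, coreceptors, relay proteins, other receptor tyrosine kinases and other feedback genes. For each list below, the share over all tested genes was 14.9% called higher and 8.7% called lower. Of 26 genes of the RAS-ERK relay, all tested, 1 was called higher and 0 lower by edgeR, as by DESeq2, and the median log2 fold change was −0.03. At an unadjusted p under 0.05 in edgeR, 5 were higher and 6 lower, with the share over all genes at this threshold not taken. The gene called was RPS6KA3 (log2 fold change 0.62), a kinase that ERK activates, which was called in clone 2 and not in clone 1. CBL (−0.65 in clone 2), a ubiquitin ligase for receptor tyrosine kinases, was called lower in clone 2 alone. Without WT replicate 2, or with upper-quartile scaling, 0 were called higher. Of 22 genes of the FGF family, 15 were tested, 10 were called higher and 2 lower, and the median log2 fold change was 1.73. FGF11, FGF12, FGF13 and FGF14 on this list are intracellular members and not receptor ligands, so these numbers do not describe ligands alone. Of them, FGF12 (0.94) and FGF13 (0.91) were called higher and FGF11 (−1.28) lower. Some genes of the list passed the filter on low counts only through PCGF6-KO. With no filter, 21 were tested, 10 were called higher and 2 lower, and the median was 1.29. Under DESeq2 or under a minimum of 10 counts per library, 0 genes of this list were called lower. FGF17, a ligand of the FGF8 subfamily, had 0 counts in both WT libraries and 133 to 203 counts in PCGF6-KO, at least 55-fold higher against a floor of 3 counts per library. FGF10, a mesenchymal ligand of FGFR2, had 2 counts in each WT library and 61 to 128 in PCGF6-KO. FGF4 (log2 fold change 4.49) and FGF18 (4.19), a ligand with affinity for FGFR3, also rose. FGF2, chosen for mention after its values were seen, had 82.1 and 83.2 CPM in WT and 79.0, 93.5, 87.9 and 96.4 CPM in the knockout libraries (log2 fold change 0.11, adjusted p = 0.359, edgeR).

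**Figure D4:**
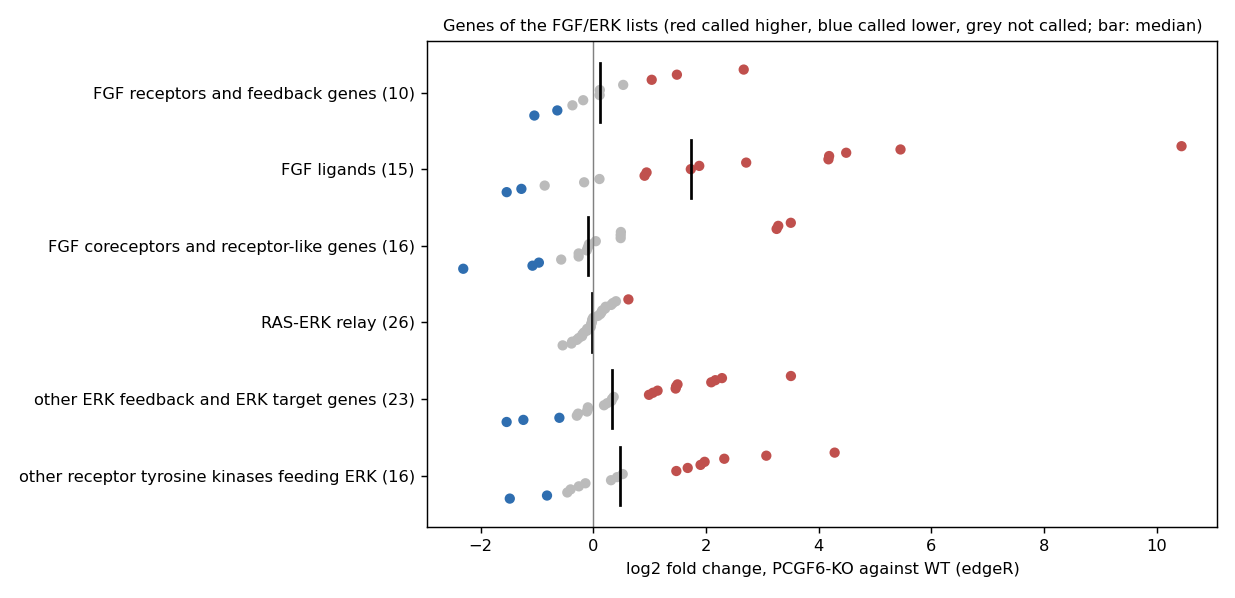
Log2 fold change between PCGF6-KO and WT (edgeR, x axis) for each tested gene of 6 lists, whose numbers of tested genes stand in brackets, with red points called higher, blue points called lower, grey points not called and a black bar at the median. The RAS-ERK relay lies near 0 (median −0.03). The list labelled FGF ligands, which includes the intracellular family members FGF11, FGF12 and FGF13, is spread widely (median 1.73). The point at the far right is FGF17, whose fitted value has no fixed size because WT is at 0.

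Of 17 coreceptors and receptor-like genes, 16 were tested, and 3 were called higher and 3 lower. The median log2 fold change was −0.09, which was 0.05 without WT replicate 1. FGFBP1, called higher with 3 and 2 WT counts, passed the filter only through PCGF6-KO, and FLRT1, called lower, only through WT. FLRT3 (3.51) and FLRT2 (3.28), transmembrane proteins that bind FGF receptors, rose. ANOS1 (−1.08), a secreted modulator of FGFR1, and FGFBP3 (−0.97), a carrier of FGF ligands, fell. Of 16 other receptor tyrosine kinases, all tested, 7 were called higher and 2 lower, with a median of 0.47. ERBB4 (5 and 2 WT counts) and NTRK2 (2 in each WT library), both called higher, passed the filter only through PCGF6-KO. ERBB4 (4.28), a neuregulin receptor, the ephrin receptors EPHA4 (2.32) and EPHA2 (1.98) and the PDGF receptor gene PDGFRA (1.90), which is also on the mesoderm marker list, rose, while ERBB2 (−1.48) and KIT (−0.82) fell.

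Of 24 other ERK feedback and target genes, 23 were tested, 10 were called higher and 3 lower, with a median log2 fold change of 0.33. Without WT replicate 2, 1 was called lower. The named increases were those of FOSL1 (3.51), an AP-1 subunit, CCND1 (2.28), which encodes cyclin D1, PHLDA1 (2.17) and EGR2 (2.09). EGR2 differed between the clones, with 2.66 in clone 1 and 1.12 in clone 2 (difference −1.54, adjusted p = 2.78e-05, edgeR). The named decreases were those of SPRED3 (−1.24), a Sprouty-related inhibitor of RAS, and SPRY3 (−1.54), which lies in a pseudoautosomal region where reads can be split between copies. The other SPRED genes, chosen for mention after their values were seen, did not follow SPRED3. SPRED2 was called higher overall and in both clones (1.06, adjusted p = 2.99e-05, edgeR). SPRED1 stayed under the fold limit (−0.29, adjusted p = 0.0336, edgeR). The phosphatases related to DUSP6 were chosen for mention after their values were seen. DUSP4, a nuclear phosphatase of ERK, had 10.99 and 12.4 CPM in WT and 31.8, 29.6, 34.4 and 33.2 CPM in PCGF6-KO. It rose by 1.46 on the log2 scale (adjusted p = 1.11e-05, edgeR). DUSP5 (0.99) and DUSP1 (1.49), which are nuclear as well, rose too. DUSP7 (−0.10, adjusted p = 0.527, edgeR) and DUSP9 (−0.11, adjusted p = 0.813, edgeR), which like DUSP6 act on cytoplasmic ERK, and DUSP2 (0.32, adjusted p = 0.502, edgeR) were not called. DUSP6 was thus the only one of these 7 phosphatases to fall, and 3 of them rose.

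For each called member, the genes with the most similar pattern were sought by the root mean square distance of centred log2 CPM over the 6 libraries. For FGFR3, GAL, which encodes the neuropeptide galanin, had a distance of 0.101. For SPRY2 they were CSRNP1 (0.0478) and the adhesion gene ALCAM (0.054). SPRY4 was nearest to PCOLCE2 (0.0637), whose product enhances procollagen processing, and DNAJC15 (0.0672). DUSP6 was nearest to MAPK8IP1 (0.028), a scaffold of the JNK pathway, and to PIM2 (0.0474), a serine/threonine kinase. ETV5 was nearest to ZNF398 (0.0405) and DIXDC1 (0.0453). MAPK8IP1, the closest of these, had 50.5 and 47.8 CPM in WT and 23.2, 25.25, 24.05 and 24.3 CPM in PCGF6-KO.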

How the data were processed

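The authors trimmed reads with Trim Galore (0.6.2), aligned them to GRCh38 with HISAT2 (2.1.0) and counted reads per gene with featureCounts, and deposited these raw counts with a gene length. Strand setting, annotation release and handling of multi-mapped reads are not given in the sources used here. ChIP-seq was not analysed here. Genes that passed filterByExpr on genotype (17672) were scaled by TMM and tested with edgeR (4.0.16) in R (4.3.3). The 4 PCGF6-KO libraries were compared with the 2 WT libraries, and each clone in a fit with 3 groups. The standard error is the log2 fold change over the square root of F. Depth was 15877396 to 18918609 counts per library. Positions and exon overlaps came from GENCODE and matched the members by symbol. The members, lists and motifs were chosen with earlier results of these data known. From each pathway list, up to 4 increases and 4 decreases were named, from genes called overall and in both clones with at least 1 mean log2 CPM. Likeness was measured on log2 CPM with a pseudocount of 0.1 CPM, among genes with at least the range of the member, and the 2 nearest genes were named, except 1 that is not reported here. The marker lists are given as sums. The fit was tested on simulated data. The alternatives tried comprised DESeq2 (1.42.0), scaling by RLE or the upper quartile, other filters (no filter, or 10 counts in every library) and thresholds, a replicate block, the groups compared only, library totals without TMM, leaving out each library, and, added after the data were seen, MANE Select lengths. Figures were drawn with Python (3.11.15), pandas (2.3.3) and matplotlib (3.10.9).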

Additional observations from a re-analysis of the deposited data

Results flagged for a closer look

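In the 4 PCGF6-KO libraries, ETV5 had 42.9, 43.5, 40.2 and 43.5 CPM. The gap of the lowest library (clone 2 replicate 1) to the next, divided by the range, was 0.8295, just past the 95% limit of Dixon's test for 4 values. Such a test picks out about 1 group in 20 by chance, and the groups of all 10 genes were looked at. The clones differed in 4 of the 10 genes by edgeR's quasi-likelihood test at an adjusted p under 0.05 in the fit with 3 groups. Of all 17672 tested genes, 3442 did. On the log2 scale, clone 2 minus clone 1 was 0.38 for SPRY2, 0.29 for SPRY1, −0.25 for SPRY4 and −0.19 for FGFR1. None of these passed the fold change limit of 0.6.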

How the results depend on the processing

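The labels do not say whether same-numbered libraries were processed together, and with 1 difference per group the correlations here cannot settle it. The differences between same-numbered replicates correlated across 13420 genes, which are not independent, with r = 0.074 (WT and clone 1), 0.074 (WT and clone 2) and 0.18 (the clones), and the fit with the replicate block kept 5, 5, 5 and 0 called members in PCGF6-KO, clone 1, clone 2 and between the clones. With the adjusted p alone, 7, 8, 9 and 4 members passed, against 6556, 8002, 8904 and 3442 of all 17672 tested genes. Without each library in turn, from 4 to 5 members were called in PCGF6-KO, from 4 to 6 in clone 1, from 4 to 5 in clone 2 and 0 between the clones, where a group left with 1 library was assumed to vary like the others. Of 590 recomputed fold changes of the members, 564 kept their direction and their side of the threshold, 18 crossed the threshold and 8 turned sign. ETV5 was not called in clone 1 with at least 10 counts in every library (−0.59). The values that turned sign were all small. SPRY1 in clone 1 was 0.018 without WT replicate 2 and 0.0094 without clone 1 replicate 1, in a range of −0.095 to 0.018 over the libraries left out. FGFR1 in clone 2 was −0.026 with upper-quartile scaling, −0.0065 without WT replicate 1 and −0.00027 without clone 2 replicate 1, in a range of −0.0065 to 0.0495. Between the clones, ETV4 was 0.066 without clone 1 replicate 1 (range −0.105 to 0.066), DUSP6 0.015 without clone 1 replicate 2 (range −0.060 to 0.015) and ETV5 0.0099 without clone 2 replicate 1 (range −0.103 to 0.0099). The cause was not tested. The median of all genes was 0.10 under DESeq2 and with no filter on low counts. With 2 libraries per group, the sign of log2 differences near 0 turned on single libraries.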
